A study of Mus musculus with 8 samples.

Results

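Lysosomal hydrolases and lysosomal membrane proteins were followed in mouse peritoneal mast cells (PMCs) as a group of 40 genes, out of 55359 genes in the deposited table of gene counts. The members were listed by gene name and not by a threshold on measured values, although earlier results of these data were known when the list was made, and all 40 were found, each under 1 gene identifier. By role they were 10 cysteine peptidases (Ctsb, Ctsc, Ctsf, Ctsh, Ctsk, Ctsl, Ctso, Ctss, Ctsz and Lgmn), 2 aspartic cathepsins (Ctsd and Ctse), 2 serine peptidases (Ctsa and Tpp1), 11 glycosidases, 4 enzymes that release sulfate groups (Arsa, Arsb, Ids and Sgsh), 3 lipid hydrolases or thioesterases (Asah1, Lipa and Ppt1), 4 cofactors or cholesterol transporters (Gm2a, Psap, Npc1 and Npc2) and 4 membrane proteins (Cd63, Lamp1, Lamp2 and Scarb2). RNA had been sequenced from 8 untreated cultures of wild-type PMCs on a C57BL/6x129/Sv background. There were 3 primary WT PMC cultures from female mice, 3 from male mice, and 1 library each of PMC-303 and PMC-306, which are PMC lines that transformed spontaneously and independently of each other in culture. Primary WT PMCs were grown for at most 8 weeks in 15% FCS and 20 ng/ml SCF and both lines in 10% FCS and 5 ng/ml SCF, all with 30 ng/ml IL-3. Effects of the medium and of transformation therefore cannot be told apart in these libraries. The study also grew PMC-306 in the medium of primary PMCs. By RT-qPCR, Cma1, Cpa3, Gzmb, Mcpt2, Mcpt4 and Tpsab1 were not influenced by it, but none of the 40 members was measured there. Each line is a single culture, PMC-306 carries a deletion in 1 copy of chromosome 4 and PMC-303 an additional chromosome 8 in part of its metaphases. The age of the mice and the number of mice behind a primary culture are not given in the sources used here, so that p-values measure the spread between these cultures.

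Lysosomes are acidic organelles in which soluble hydrolases take apart proteins, glycans, lipids and sulfated sugars, and their membrane is lined with heavily glycosylated proteins such as LAMP1 and LAMP2. Most of the hydrolases are tagged with mannose 6-phosphate in the Golgi and carried to the lysosome by receptors. The granules of mast cells are secretory lysosomes: they hold lysosomal hydrolases beside histamine and mast cell proteases, and on degranulation β-hexosaminidase, whose alpha subunit is encoded by Hexa, is released while LAMP1 and CD63 reach the cell surface. The comparison of the lines with primary WT PMCs asks whether the transcripts for this lysosomal content differed in cells that the study examined for granule content and degranulation.

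The libraries held between 15918758 and 24180226 estimated counts. Values are counts per 1000000 (CPM) after scaling of the libraries by TMM, the trimmed mean of M values. Where a gene has a count of 0, up to 3 counts are possible, or between 0.123 and 0.187 CPM in these libraries, and such limits cover counting error only. For levels of different genes, transcripts per 1000000 (TPM), which take the length of the transcripts into account, were used. Mast cell markers were high in all libraries, with a sum over 10 genes of 43472 CPM in PMC-303, 40075 CPM in PMC-306 and 53033 to 83090 CPM in the primary cultures, and of these genes 4 were called lower and 0 higher in the lines. Markers of B cells (4 genes), T cells (3), neutrophils (3), eosinophils (3) and fibroblasts or mesothelium (5) summed to at most 0.344 CPM per list in any library. The 10 macrophage markers summed to 452 CPM in PMC-306, to 8.93 CPM in PMC-303 and to 7.75 to 68.9 CPM in the primary cultures. Of the 452 CPM, 426 CPM were Adgre1, while C1qa, C1qb, Cd14 and Mrc1 had at most 3 counts in any library. In such bulk samples fewer cells that express a gene and less RNA per cell cannot be told apart.

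The levels of the members in primary WT PMCs ranged from near 0 to that of Ctsd, which encodes the aspartic peptidase cathepsin D. Its mean was 2125 ± 468 TPM (SD, n = 6). The tetraspanin gene Cd63 followed with 788 ± 158 TPM and Gm2a, which encodes the activator that lifts GM2 ganglioside out of the membrane for β-hexosaminidase A, with 317 ± 95.2 TPM (SD, n = 6 for both). Man2b1, the lysosomal alpha-mannosidase, had 189.6 ± 32.1 TPM and Psap, the precursor of the saposins, 161 ± 22.4 TPM (SD, n = 6 for both). The ranges of Ctsd (1444 to 2559 TPM), Cd63 (546 to 1016 TPM) and Gm2a (201 to 476 TPM) did not overlap, whereas Man2b1 (149 to 223 TPM) and Psap (139.9 to 201 TPM) did not differ beyond their spread, and Gm2a overlapped with Man2b1 at the lower end. The glycosidase Fuca1 was next to Ctsa with 138 ± 41.8 TPM against 143 ± 20.9 TPM, and Hexa and Lamp1 were at 128 ± 21.0 and 118 ± 18.1 TPM (SD, n = 6 for each), with ranges that overlapped. At the other end, Ctsh, Ctsk, Ctsl and Lgmn had at most 11 counts in any library, and Arsb, the N-acetylgalactosamine 4-sulfatase, had 0.0622 to 0.369 CPM in the primary cultures. These 5 members did not pass the filter on low counts and were not tested. Cathepsin S (Ctss), an endopeptidase of antigen-presenting cells, passed it with 0.105 to 1.23 CPM in the primary cultures and 2.85 CPM in PMC-306. The macrophage marker sum was highest in PMC-306, where most of it was Adgre1. Among the primary cultures, female culture 2 had the highest sum (68.9 CPM) and 0.176 CPM of Ctss. Male culture 1 had the most Ctss (1.23 CPM) and a sum of 10.8 CPM. The part of other cells in the Ctss value was not tested.

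**Figure D1:**
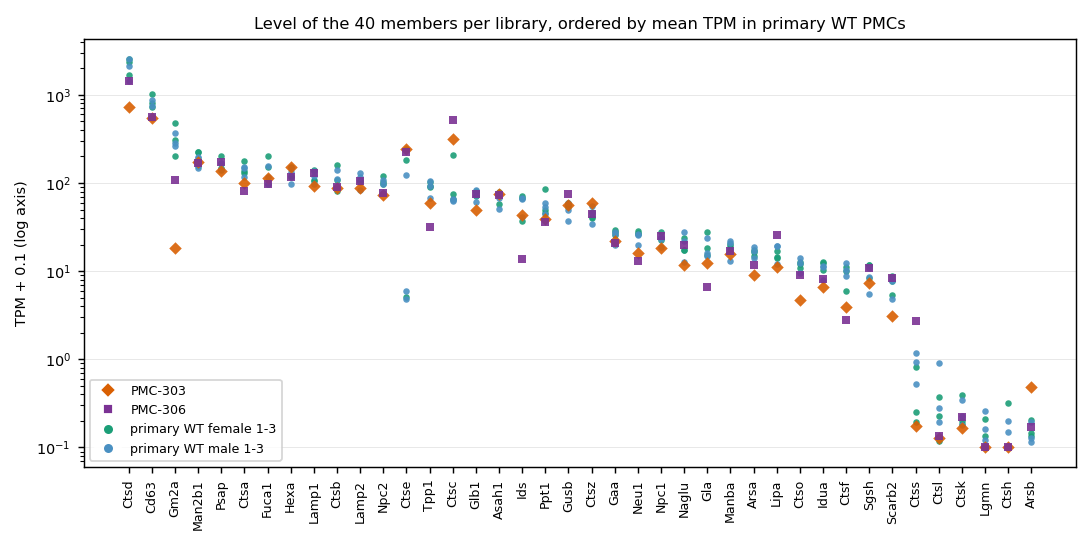
Level of each of the 40 members in each library as TPM + 0.1 on a log axis, ordered by the mean TPM of the 6 primary WT PMC cultures (circles, green for female and blue for male mice; orange diamonds, PMC-303; purple squares, PMC-306). Ctsd leads at 2125 TPM, the 6 members on the right are near 0 TPM, and the primary cultures fall into separate levels for Ctse.

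Summed over the 40 members, TPM was 3400.1 in PMC-303 and 4397 in PMC-306, and in the primary cultures it ranged from 3941 to 6468 with a mean of 5271 ± 845 (SD, n = 6). PMC-303 was thus below the primary range and PMC-306 within it, where only male culture 3 was lower than PMC-306. The next lowest primary culture, female culture 3, had 4904 TPM. These TPM were not scaled by TMM. In TPM the median log2 fold of all genes tested, lines against primary, was 0.13, against -0.012 with TMM-scaled CPM. Sums of TPM therefore place the lines higher against the primary cultures than TMM-scaled values would, and sums of TMM-scaled values are not given here. Ctsd alone made up 34.2% to 44.9% of the members' TPM in the primary cultures, 32.3% in PMC-306 and 21.6% in PMC-303. Without Ctsd, the unscaled sum over the other 39 members was 2667 TPM in PMC-303 and 2975 TPM in PMC-306. Both were within the primary range from 2496 to 3919 TPM, a position that depends on the scaling and does not show an unchanged total. The lower end of this range was again male culture 3. The next culture, female culture 1, had 2913 TPM, which was above PMC-303 and close to PMC-306. The cysteine peptidases went the other way: their sum of 472 TPM in PMC-303 and 669 TPM in PMC-306 lay above the highest primary culture with 346 TPM, and Ctsc alone contributed 316 and 520.2 TPM. Among the primary cultures, male culture 3 had the lowest cysteine peptidase sum (202 TPM) and female culture 3 the highest. Over all 40 members, male culture 3 was lowest and female culture 2 highest.

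**Figure D2:**
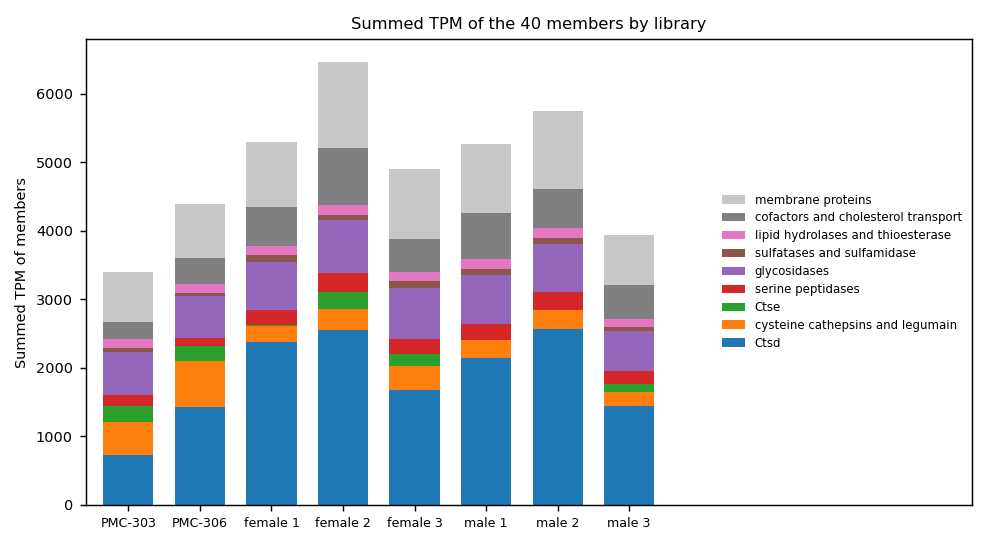
Summed TPM of the 40 members in each library, stacked by role, with Ctsd and Ctse shown apart. The bar of PMC-303 ends at 3400.1 TPM, below the lowest primary culture at 3941 TPM, and its Ctsd segment is 733 TPM.

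Both lines together were compared with the 6 primary cultures by limma on log2(CPM + 0.1), with Benjamini-Hochberg adjustment over all 14525 genes tested and a threshold of 0.05. In this test, each line stands for 1 of 2 replicates of a transformed PMC. Of the 35 members tested, 16 were lower (45.7%), 1 was higher (2.86%) and 18 did not pass the threshold. Of all genes tested, 15.5% were called lower and 18.3% higher. The median log2 fold of the lines against primary WT PMCs was -0.41 over the 35 members and -0.012 over all genes tested. The members called lower were Ctsa, Ctsd, Ctsf, Ctso, Gaa, Gla, Ids, Idua, Arsa, Neu1, Npc2, Lamp2, Cd63, Tpp1, Ppt1 and Gm2a, and the member called higher was Ctsc. Of the 16 lower members, 15 were below the lowest primary culture in both lines. This position comes from the same values as the call and is no further support for it. Ids was the exception, with a PMC-303 value above the lowest primary culture. The split of all genes depends on the scaling: total counts in place of TMM gave 1665 lower and 3406 higher genes and TPM 983 and 2370, against 2254 and 2659 with TMM. The members' split was 15 lower and 1 higher with total counts, and 9 lower and 1 higher with TPM, which also moved the median of all genes by 0.14 on the log2 scale.

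**Figure D3:**
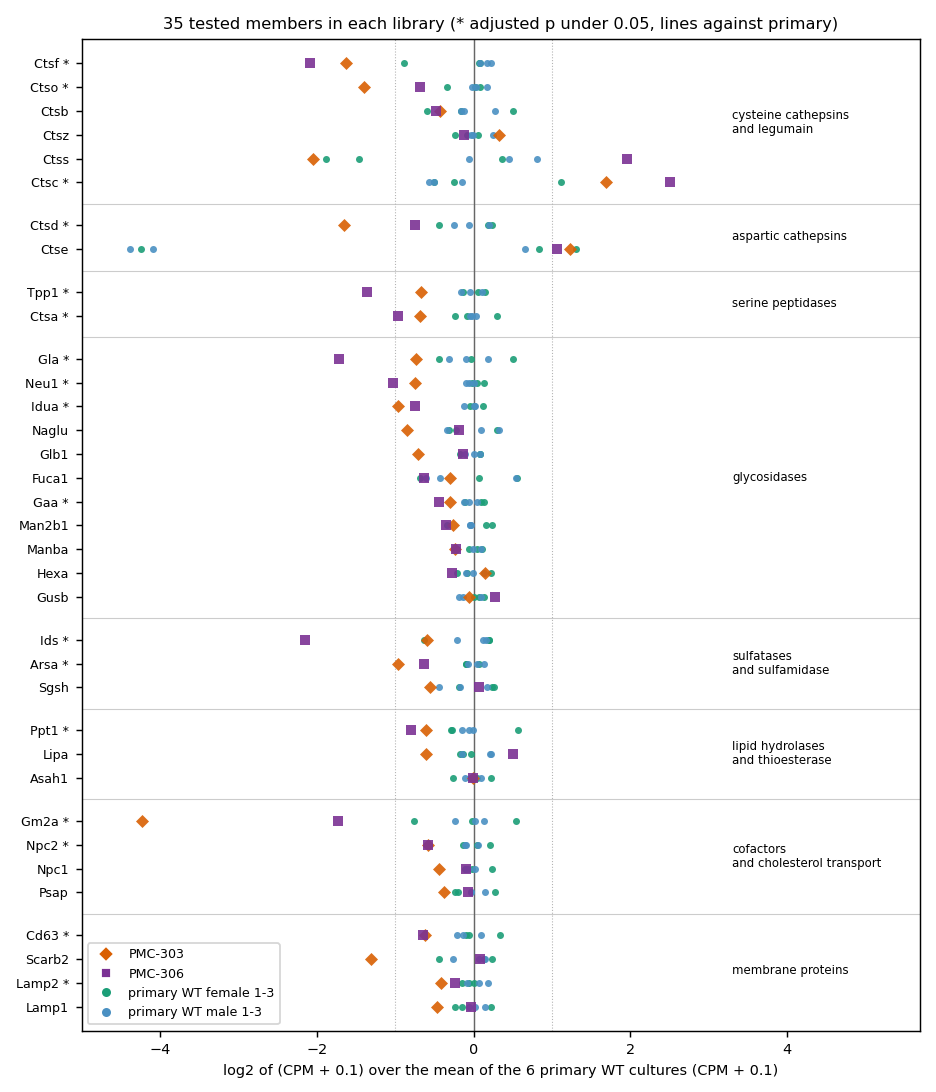
Each of the 35 tested members in each library, as the log2 of CPM + 0.1 over the mean of the 6 primary cultures; circles are primary cultures (green female, blue male), diamonds PMC-303 and squares PMC-306, grouped by role, with a star for an adjusted p under 0.05 by limma. PMC-303 lies furthest to the left for Gm2a at -4.23, PMC-306 furthest to the right for Ctsc at 2.503, and 3 primary cultures stand apart on the left for Ctse.

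Gm2a fell most among the called members. It had 67.5 CPM (PMC-303) and 383 CPM (PMC-306), and the primary cultures had 749, 1267 and 1849 CPM as lowest, median and highest value. Both lines were below all 6 primary cultures, PMC-303 by 18.7-fold and PMC-306 by 3.31-fold relative to the primary mean, and PMC-306 had more than PMC-303. The fitted log2 fold was -2.93 ± 0.57 (SE, adjusted p = 0.00509 by limma), and without PMC-303 it was -1.68. The gene lies at chr11:54988883-55003855, plus strand of GRCm39. Among the other genes of this role, Npc2, the soluble cholesterol carrier, fell from 298 ± 27.8 CPM (SD, n = 6) to 199.6 CPM (PMC-303) and 199 CPM (PMC-306), a log2 fold of -0.57 ± 0.10 (SE, adjusted p = 0.00283 by limma). The Npc2 call was lost with TPM (adjusted p = 0.0865 by limma). Its membrane partner Npc1, on chromosome 18, did not pass the threshold (log2 fold -0.26 ± 0.12, adjusted p = 0.115 by limma). Psap had 309 CPM in PMC-303, 380.3 CPM in PMC-306 and 342, 392.3 and 484 CPM as lowest, median and highest primary value. PMC-306 was within that range and PMC-303 below it, and the log2 fold of -0.21 had a 95% interval from -0.55 to 0.12 (adjusted p = 0.298 by limma).

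The most abundant member, Ctsd (chr7:141929646-141941775, minus strand), had 1310.0 CPM in PMC-303, 2449 CPM in PMC-306 and 3038, 4319 and 4849 CPM as lowest, median and highest primary value. The lines were thus below all primary cultures, and PMC-303 was lower than PMC-306. The log2 fold was -1.18 ± 0.27 (SE, adjusted p = 0.0106 by limma), and without PMC-303 it was -0.73 with an adjusted p of 0.103. The other aspartic cathepsin, Ctse (chr1:131566009-131603243, plus strand), was named after its values were seen because the primary cultures fell into separate levels. It had 467, 335 and 297 CPM in female cultures 2 and 3 and male culture 3, and 9.83, 8.94 and 10.9 CPM in female culture 1 and male cultures 1 and 2. PMC-303 with 441 CPM and PMC-306 with 393 CPM were at the upper level. With this spread the lines could not be told from the primary cultures (log2 fold 2.80 ± 1.78, adjusted p = 0.262 by limma, 95% interval from -1.26 to 6.86). The upper level was found in cultures of both sexes. The glycosidase gene Fuca1 was also highest in these 3 cultures, with 220.5, 158 and 219 CPM against 93.7, 112 and 98.7 CPM in the same order, but the steps between cultures were smaller.

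Ctsc (chr7:87927092-87960096, plus strand) encodes cathepsin C, the dipeptidyl peptidase that activates granule serine proteases such as the chymases and granzyme B. It had 564 CPM in PMC-303, 992 CPM in PMC-306 and 118, 136 and 378 CPM as lowest, median and highest primary value. Both lines were above all primary cultures, and the highest of these, female culture 3, stood apart from the other 5, which had at most 158 CPM. The log2 fold was 2.24 ± 0.43 (SE, adjusted p = 0.00505 by limma), and without female culture 3 it was 2.49. Ctsf (chr19:4905118-4915986, plus strand), a cysteine cathepsin, moved in the opposite direction. It had 4.94 CPM in PMC-303, 3.58 CPM in PMC-306 and 8.33, 16.4 and 18.2 CPM as lowest, median and highest primary value. The lowest primary culture was again female culture 3, and both lines were below it. For Ctsf the log2 fold was -1.81 ± 0.29 (SE, adjusted p = 0.00209 by limma). Ctso (chr3:81839873-81867246, plus strand), a further cysteine cathepsin, had 13.05 CPM in PMC-303, 21.4 CPM in PMC-306 and 27.2, 34.96 and 38.9 CPM as lowest, median and highest primary value. Both lines were below the primary range, with a log2 fold of -1.03 ± 0.19 (SE, adjusted p = 0.00392 by limma), and without PMC-303 it was -0.68. Ctsb, an endopeptidase and carboxypeptidase, and the carboxypeptidase Ctsz did not pass the threshold (log2 fold -0.41 ± 0.25 and 0.11 ± 0.15, adjusted p = 0.233 and 0.603 by limma). Of the 6 tested cysteine peptidases, 2 were lower, 1 was higher and 3 were not called.

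Both serine peptidases fell. Tpp1 (chr7:105394018-105401481, minus strand), which removes tripeptides from the N-terminus of proteins, had 111 CPM in PMC-303, 69.0 CPM in PMC-306 and 159, 178 and 197 CPM as lowest, median and highest primary value. The lines did not overlap with the primary cultures, and the log2 fold was -1.01 ± 0.17 (SE, adjusted p = 0.00236 by limma), or -0.67 without PMC-306. Ctsa, the protective protein that forms a complex with Glb1 and Neu1, had 138 CPM (PMC-303) and 113 CPM (PMC-306), while primary WT PMCs had 221 ± 28.1 CPM (SD, n = 6). Its log2 fold was -0.81 ± 0.13 (SE, adjusted p = 0.00241 by limma). The sialidase Neu1 fell too, from 67.1 ± 3.76 CPM (SD, n = 6) to 40.1 CPM (PMC-303) and 32.9 CPM (PMC-306) (log2 fold -0.88 ± 0.093, adjusted p = 0.000267 by limma). Glb1, the β-galactosidase of this complex, had 103 CPM (PMC-303) and 153 CPM (PMC-306), where the primary cultures had 149 to 179 CPM, and its adjusted p of 0.0506 by limma missed the threshold (log2 fold -0.42 ± 0.14).

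**Figure D4:**
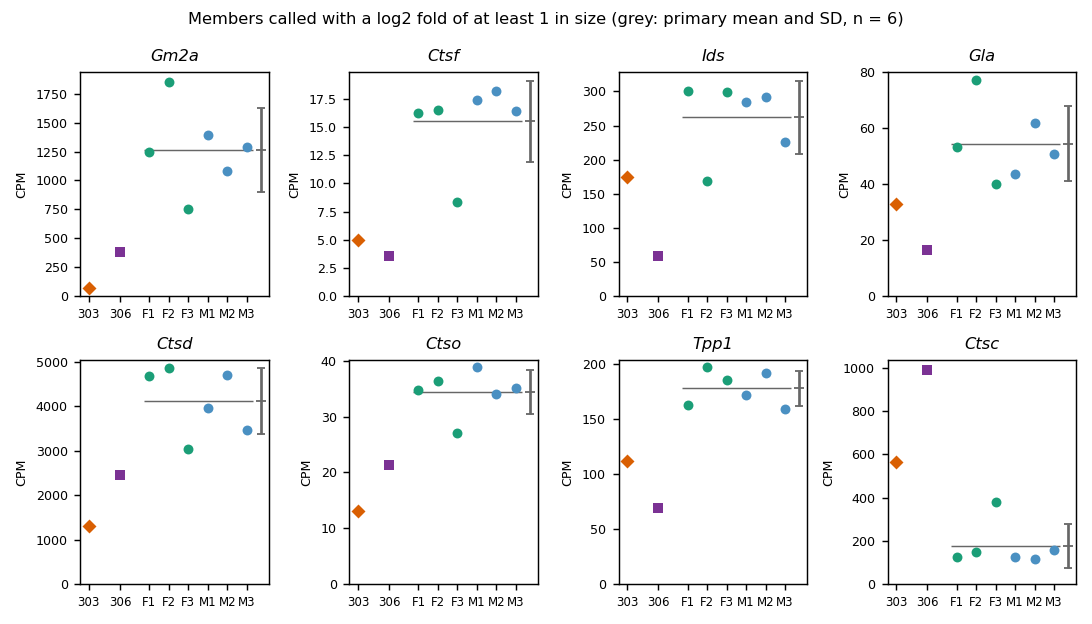
CPM of the 8 members that were called by limma with a log2 fold of at least 1 in size, in each library (orange diamond, PMC-303; purple square, PMC-306; green circles, female and blue circles, male primary cultures), with the primary mean as a grey line and its SD as a grey bar (n = 6). The values of both lines lie below the 6 primary cultures for Gm2a, Ctsf, Gla, Ctsd, Ctso and Tpp1 and above them for Ctsc, and for Ids the value of PMC-303 (174 CPM) overlaps with female culture 2 (168 CPM).

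Of the 11 glycosidases, 4 fell and 7 were not called. Gla (chrX:133488891-133501904, minus strand), the alpha-galactosidase, had 32.9 CPM in PMC-303, 16.5 CPM in PMC-306 and 40.2, 52.1 and 77.1 CPM as lowest, median and highest primary value. PMC-306 was lower than PMC-303 and both were below the primary cultures, with a log2 fold of -1.19 ± 0.29 (SE, adjusted p = 0.015 by limma). Without PMC-306 the log2 fold was -0.69 with an adjusted p of 0.139. The alpha-L-iduronidase Idua and the acid alpha-glucosidase Gaa also fell, by 0.86 ± 0.094 and 0.37 ± 0.091 on the log2 scale (SE, adjusted p = 0.000333 and 0.0152 by limma). Both calls were lost with TPM (adjusted p = 0.0721 for Idua and 0.224 for Gaa by limma), and that of Gaa also without PMC-306 (adjusted p = 0.107 by limma). Hexa had 261 CPM in PMC-303, 195 CPM in PMC-306 and 202, 227 and 274 CPM as lowest, median and highest primary value. PMC-303 was within this range and PMC-306 just below it, and the log2 fold of -0.053 had a 95% interval from -0.38 to 0.27 (adjusted p = 0.802 by limma). Man2b1 had 551 CPM in PMC-303, 519.6 CPM in PMC-306 and 522, 643 and 778 CPM as lowest, median and highest primary value. Both lines were near the lower end of the primary cultures, PMC-306 just below it, and the gene was not called (log2 fold -0.29 ± 0.14, adjusted p = 0.144 by limma). The β-glucuronidase Gusb, the β-mannosidase Manba, Naglu, which removes N-acetylglucosamine from heparan sulfate, and Fuca1 had log2 folds of 0.11, -0.23, -0.49 and -0.37, with adjusted p from 0.0947 to 0.487 by limma.

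Among the enzymes that release sulfate, Ids (chrX:69386675-69408718, minus strand), the iduronate 2-sulfatase, had 174 CPM in PMC-303, 59.1 CPM in PMC-306 and 168, 288 and 301 CPM as lowest, median and highest primary value. PMC-306 was far below the primary cultures, whereas PMC-303 overlapped with them. The log2 fold was -1.34 ± 0.38 (SE, adjusted p = 0.0253 by limma), and it rested on PMC-306, without which it was -0.56 with an adjusted p of 0.215. With TPM the adjusted p for Ids was 0.0628. Arsa, the arylsulfatase that acts on sulfatides, fell from 44.2 ± 2.99 CPM (SD, n = 6) to 22.6 CPM (PMC-303) and 28.6 CPM (PMC-306) (log2 fold -0.79 ± 0.11, adjusted p = 0.000915 by limma). Sgsh, the heparan N-sulfatase, was not called (log2 fold -0.22 ± 0.23, adjusted p = 0.491 by limma). Of the lipid hydrolases and thioesterases, Ppt1, which cleaves palmitate from cysteine residues, fell by 0.67 ± 0.21 (SE, log2 scale, adjusted p = 0.0363 by limma), with 79.2 and 69.3 CPM in PMC-303 and PMC-306 and 99.0 to 179.8 CPM in the primary cultures. That call was lost in 6 of 11 alternatives, which included leaving out either line or any of the 3 male cultures. The acid ceramidase Asah1 was at 116 CPM (PMC-303) and 116 CPM (PMC-306), beside a primary mean of 117 ± 13.5 CPM (SD, n = 6), with a 95% interval of the log2 fold from -0.27 to 0.26 (adjusted p = 0.989 by limma). For the acid lipase Lipa the lines lay on opposite sides of the primary range from 39.4 to 51.7 CPM, PMC-303 at 29.1 CPM and PMC-306 at 62.9 CPM.

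Of the membrane proteins, Cd63 and Lamp2 fell and Lamp1 and Scarb2 were not called. Cd63 had 470.0 CPM in PMC-303, 462 CPM in PMC-306 and 623, 688 and 913 CPM as lowest, median and highest primary value. The lines were close to each other and below the primary cultures, with a log2 fold of -0.62 ± 0.14 (SE, adjusted p = 0.0094 by limma), and the call was lost with TPM (adjusted p = 0.134) and without PMC-306 (adjusted p = 0.0524). Lamp1 had 177 CPM in PMC-303, 238 CPM in PMC-306 and 207, 241 and 285 CPM as lowest, median and highest primary value. Here PMC-306 was within the primary range and PMC-303 below it, and the log2 fold of -0.24 had a 95% interval from -0.58 to 0.10 (adjusted p = 0.247 by limma). Lamp2 fell by 0.32 ± 0.10 on the log2 scale (SE, adjusted p = 0.0346 by limma), with 220.1 CPM (PMC-303) and 248 CPM (PMC-306) against 266, 288 and 335 CPM as lowest, median and highest primary value, and this call was lost in 4 of 11 alternatives. Scarb2, the membrane receptor that carries β-glucocerebrosidase to lysosomes, had 12.6 CPM (PMC-303) and 33.3 CPM (PMC-306), where the primary cultures ranged from 23.1 to 37.1 CPM, and was not called (log2 fold -0.60 ± 0.33, adjusted p = 0.197 by limma).

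Taken line by line, with no test since each line has 1 library, 35 members had at least 1 CPM in PMC-303 or on average in the primary cultures, and 35 in PMC-306 or the primary cultures. In PMC-303, 24 of them (68.6%) were below the range of all 6 primary cultures and 3 (8.57%) above it, while over all genes 30.2% were below and 36.3% above. In PMC-306, 19 of 35 (54.3%) were below and 4 (11.4%) above, while over all genes 32.8% were below and 34.6% above. Differences of at least 2-fold were fewer. In PMC-303, Ctsd, Ctsf, Ctso, Gm2a and Scarb2 were at least 2-fold lower than the primary mean (5 of 35, 14.3%, against 9.14% of all genes) and Ctsc, Ctse and Arsb at least 2-fold higher (3 of 35, 8.57%, against 10.6%). In PMC-306, Ctsf, Gla, Ids, Neu1, Tpp1 and Gm2a were at least 2-fold lower (6 of 35, 17.1%, against 10.3% of all genes) and Ctsc, Ctse and Ctss at least 2-fold higher (3 of 35, 8.57%, against 10.4%). The 2-fold counts of members were thus close to the background in the upward direction, and in the downward direction they exceeded it by few genes. Gm2a and Ctsf were at least 2-fold lower in both lines. The median log2 fold over the 35 members was -0.58 in PMC-303 and -0.35 in PMC-306. Arsb had 1.36 CPM (PMC-303) and 0.246 CPM (PMC-306). Of the members on chromosome 8, Lamp1, Man2b1 and Asah1 stood in PMC-303 at 72.6%, 83.4% and 99.4% of their primary mean, where the median log2 fold of the 698 genes of that chromosome was 0.22 against 0.02 over all 13024 genes. Gla, Ids and Lamp2, which are on the X chromosome, stood in PMC-306 at 30.3%, 22.6% and 84.6% of their primary mean, where the median log2 fold of 383 genes of that chromosome was 0.08. On chromosome 4, Ppt1 and Fuca1 stood in PMC-306 at 57.3% and 64.7% of their primary mean. The median log2 fold of the 750 genes of that chromosome was -0.08 in PMC-306, against -0.01 over all 13064 genes. Whether Ppt1 and Fuca1 lie within the deletion of PMC-306 was not examined.

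Female and male primary cultures were compared because Gla, Ids and Lamp2 are X-linked. Of the 35 members tested, 0 were called by limma at an adjusted p under 0.05 and 0 had an unadjusted p under 0.05, while 0.0438% of all genes (6 of 13693) were called. Gla had 53.4, 77.1 and 40.2 CPM in the female and 43.8, 61.8 and 50.8 CPM in the male cultures. Ids had 301, 168 and 299.9 CPM in the female and 285, 292 and 225 CPM in the male cultures. Lamp2 had 295, 281 and 266 CPM in the female and 308, 335 and 276 CPM in the male cultures. For each of these genes the sexes overlapped. The log2 difference, female minus male, was 0.089 for Gla (95% interval from -0.50 to 0.67), -0.10 for Ids (-0.68 to 0.48) and -0.12 for Lamp2 (-0.34 to 0.10). Differences within these intervals were not detectable with 3 cultures per sex. The spread over the 6 primary cultures differed by member: the coefficient of variation of CPM ranged from 5.53% for Idua to 108% for Ctse, with a median of 12.7%, and was under 15% for 21 of the 35 tested members.

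Estimated counts per transcript gave the make-up of each member. For 22 of the 35 tested members a single transcript held over 10% of the gene on average, and for 13 there were 2 or more. For Tpp1, transcript Tpp1-201, which is protein-coding, made up 63.2% in PMC-303 and 64.4% in PMC-306 and between 53.3% and 62.2% in the primary cultures, and among the transcripts of these 13 members over 10% it was the only one that lay on the same side of the primary range in both lines. Of the members with a single such transcript, Ctsd, Cd63 and Lamp1 had its share below the primary range in both lines. Ctsd-202 made up 90.5% in PMC-303 and 88.1% in PMC-306 but 93.2% to 95.1% in the primary cultures, and Cd63-201 92.5% and 90.4% but 93.1% to 93.9%. The shares of Lamp1-201 were 99.77% and 99.74%, with 99.81% to 99.94% in the primary cultures. For Neu1 the transcript with a retained intron, Neu1-202, held 57.4% in PMC-306, 40.1% in PMC-303 and between 34.6% and 43.7% in the primary cultures. For Psap, Psap-202 held 43.5% in PMC-303, 36.1% in PMC-306 and 26.3% to 39.3% in the primary cultures. In Lamp2, the main transcript Lamp2-202 held 73.3% in PMC-303 and 69.2% in PMC-306 and 71.6% to 76.2% in the primary cultures, and Lamp2-201 most of the rest. Transcripts of a gene share exons, so that the assignment of reads to them is uncertain, and these shares were not tested.

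TFEB, TFE3 and MITF, the MiT family of transcription factors, bind an E-box that is found near the start of many lysosomal genes, and MITF is also a lineage factor of mast cells. The members' promoters, from 250 bases before to 50 bases after the start in RefSeq, were therefore searched for CACGTG and for the longer TCACGTGA, which contains it. Both read the same on either strand. A promoter was available for 35 of the 40 members, not for Asah1, Ctsb, Ctse, Ctsh and Npc1. CACGTG was found for 12 of the 35 members (34.3%) and for 2187 of all 27025 genes (8.09%), and TCACGTGA for 3 members (8.57%) and for 304 genes (1.12%). By call, 6 of 16 members that were lower, 0 of 1 that was higher, 4 of 14 not called and 2 of 4 not tested held CACGTG. A link between motif and call was not tested, and the share of lower genes among all 304 genes with TCACGTGA was not computed. The members with TCACGTGA were Ctsa, Ctsd and Gla, and all 3 were lower in the lines. The stretches around the matches of those members are shown, with the 3 others that were lower and the promoter of Lamp1, which held 4 matches and was not called. All 6 lower members with CACGTG are thus shown, but only 1 of the 4 not called. Glb1, Naglu and Sgsh, which were not called, and Ctsl and Lgmn, which were not tested, also held it and are not shown. Capitals mark the E-box, each line is read 5′ to 3′ on the strand of the gene, and coordinates are those of the same sequence in GRCm39.
Ctsa (chr2:164675669-164675715, plus strand): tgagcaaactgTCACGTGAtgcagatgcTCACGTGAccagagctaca
Ctsd (chr7:141941645-141941674, minus strand): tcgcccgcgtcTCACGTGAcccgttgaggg
Ctsd (chr7:141941792-141941814, minus strand): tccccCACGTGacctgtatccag
Gla (chrX:133501931-133501993, minus strand): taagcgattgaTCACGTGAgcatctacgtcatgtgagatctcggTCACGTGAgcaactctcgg
Arsa (chr15:89361626-89361655, minus strand): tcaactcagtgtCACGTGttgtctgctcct
Ctsf (chr19:4905102-4905131, plus strand): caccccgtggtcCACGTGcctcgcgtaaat
Gaa (chr11:119158637-119158666, plus strand): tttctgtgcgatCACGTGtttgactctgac
Lamp1 (chr8:13209088-13209163, plus strand): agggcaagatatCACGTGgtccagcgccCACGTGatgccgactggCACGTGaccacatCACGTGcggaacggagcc
A match says that these letters are present in the window, and no binding was measured. The E-box of Arsa began 16 bases before the start, those of Lamp1 between 61 and 15 bases before it, and those of Ctsd 98 and 245 bases before it, of which the nearer one is part of TCACGTGA. Ctsa held TCACGTGA on both sides of the start, its E-boxes beginning 12 bases before and 5 bases after it.

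Of the MiT factors themselves, Tfeb was low and fell, and Mitf and Tfe3 did not pass the threshold. Mitf had 227 CPM in PMC-303, 252 CPM in PMC-306 and 199.8 to 243 CPM in the primary cultures (log2 fold 0.16 ± 0.085, adjusted p = 0.177 by limma). Tfe3 had 30.7 and 22.1 CPM in the lines and 29.3 to 36.9 CPM in the primary cultures (log2 fold -0.32 ± 0.14, adjusted p = 0.125 by limma). Tfeb fell from 2.86 ± 0.353 CPM (SD, n = 6) to 0.617 CPM (PMC-303) and 1.57 CPM (PMC-306), a low level in all libraries (log2 fold -1.43 ± 0.31, adjusted p = 0.00872 by limma). Of the 6 tested genes of this list, 3 were lower and 0 higher, and the other 2 lower genes were Flcn and Fnip1, which form the complex that controls these factors from the lysosome (log2 folds -0.51 and -0.71, adjusted p = 0.00897 and 0.000203 by limma).

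Further lists of lysosomal genes that are no members were set beside the members, again by counts and medians and with 15.5% lower and 18.3% higher over all genes tested. Of 28 tested other lysosomal enzymes, 11 were lower and 4 higher, with a median log2 fold of -0.45. Siae, a sialic acid esterase, was among the higher genes and Plbd2 among the lower ones (log2 folds 1.37 and -0.91). Of 24 tested lysosomal membrane proteins and transporters, 12 were lower and 0 higher (median -0.32), among them Cln3, Ctns, the cystine exporter, Clcn7, a chloride-proton exchanger, and Laptm5 (log2 folds -1.37, -1.11, -1.01 and -0.92). The subunits of the V-ATPase, which acidifies lysosomes, had 8 lower and 0 higher genes of 18 tested (median -0.24), with Atp6ap1, Atp6v0c and Atp6ap2 lowest among them (log2 folds -0.75, -0.58 and -0.55). Of 26 tested genes for sorting to lysosomes, 11 were lower and 2 higher (median -0.17), and Nagpa, which uncovers the mannose 6-phosphate tag, and Vps39, a tethering subunit, were the lower genes with the widest differences above 10 CPM (log2 folds -1.002 and -0.97). Of 6 tested cathepsin inhibitors, 0 were called (median -0.23). The 11 genes of the mTORC1 platform on lysosomes had 1 lower and 3 higher genes (median 0.12), and the higher genes were Lamtor3, Lamtor4 and Rheb (log2 folds 0.61, 0.56 and 0.35). Granule proteases, several of which are substrates of cathepsin C, had 6 lower and 0 higher genes of 11 tested (median -2.13). Mcpt4, Tpsb2, Mcpt2 and Tpsg1 had the widest differences. They belong to families of related genes that can share reads, which was not examined here, so that their values are uncertain. By RT-qPCR, the study did not detect Mcpt2 and Mcpt4 in PMC-306. Gzmb, a substrate of cathepsin C that was named after its values were seen, fell from 612 ± 133 CPM (SD, n = 6) to 120.2 CPM (PMC-303) and 217 CPM (PMC-306) while Ctsc was higher in the same libraries.

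**Figure D5:**
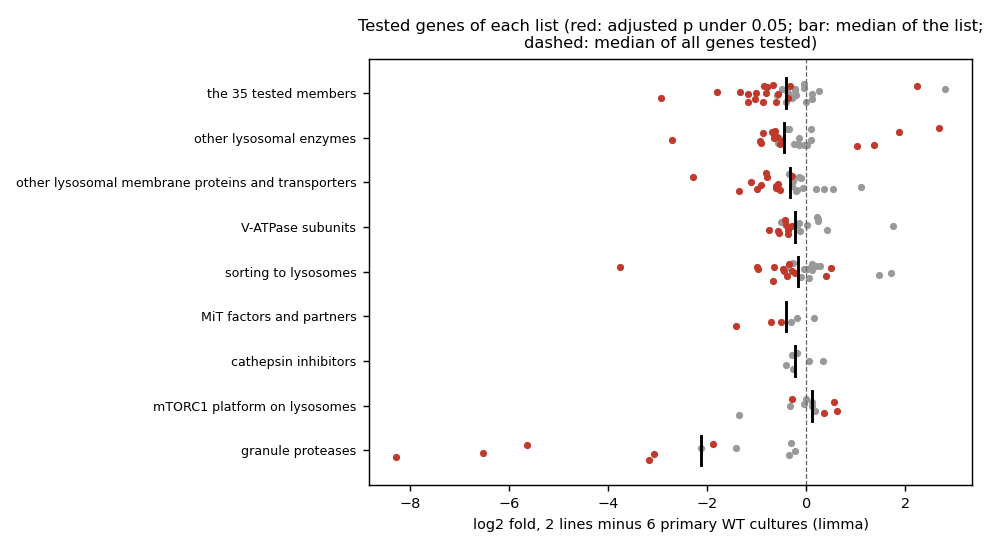
Log2 fold of the lines against primary WT PMCs for each tested gene of the members and of 8 further lists (red, adjusted p under 0.05 by limma; black bar, median of the list; dashed line, median of all genes tested). The members' median is -0.41, that of lysosomal membrane proteins and transporters -0.32, and granule proteases spread furthest to the left.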

How the data were processed

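RNA was sequenced from 8 cultures of mouse PMCs, 2 lines and 6 primary cultures, which were grouped by their labels. According to the study's methods, stranded total RNA libraries were prepared by the authors and processed in nf-core/rnaseq by Trim Galore 0.6.7, then STAR 2.7.9a on GRCm39, then Salmon 1.5.2. What the authors deposited are estimated counts, without normalization, of genes and of transcripts, and a table of TPM for genes. A spreadsheet program had rewritten as many as 20.8% of cells holding TPM, 3.37% holding gene counts and 3.22% holding transcript counts, as dates or with shifted points. These were set back to numbers, after which gene counts and summed transcripts differed by at most 0.2 counts in 99.7% of cells and by 1.53 at most. TPM columns then summed to between 1000058 and 1000319, and 5307 TPM cells were read so as to fit the counts. Because cells had been rewritten as text, the tables were not treated as plain count tables, and a test on log values was used.

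Counts were scaled to CPM with TMM over all 8 libraries. Genes with a count of about 10 in at least as many libraries as the smaller group and 15 in total were tested with limma 3.58.1 in R 4.3.3 on log2(CPM + 0.1). The fit had a variance trend over the mean, no covariate and Benjamini-Hochberg adjustment over all genes tested, for both lines against the primary cultures (14525 genes) and for female against male primary cultures (13693 genes). Single lines were compared with the primary mean by folds of CPM + 0.1 with no test, where the line or the primary mean reached 1 CPM. Log2 folds of low genes are understated by the 0.1 CPM added. The test was checked on simulated counts. Alternatives were other scalings, 0.5 and 1 CPM added, other filters, no trend, TPM, primary cultures of 1 sex and each library left out.

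The members and the lists were chosen with earlier results of these data known. Values in every library are given for members called with a log2 fold of at least 1 in size, the 5 members with the highest TPM in primary cultures, Hexa, Lamp1 and Cd63, and X-linked members between the sexes. Of each further list at most 4 called genes are named, those with the largest log2 fold among genes that average 10 CPM or more, and Mitf, Tfeb and Tfe3 always. Some genes that this rule would name are not reported here. Ctse and Gzmb were named after their values were seen. GENCODE M39 on GRCm39 gave the gene coordinates and held 98.9% of the genes of the table and all 40 members. Promoter sequences are from RefSeq (GRCm38.p6) and were placed on GRCm39 by exact match. Other calculations used Python 3.11.15 with numpy 2.4.6 and pandas 2.3.3.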

Additional observations from a re-analysis of the deposited data

Results flagged for a closer look

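In each member with a mean of at least 1 CPM in the primary cultures (34 members), the highest and the lowest of the 6 primary cultures were set against the others, and 4 members had a culture that stood apart by Dixon's criterion at the 95% level. Chance marks about 1 in 20 such groups. Ctsc was high in female culture 3, with 378 CPM and 158 CPM in the next culture, and Ctsf was low in the same culture, with 8.33 CPM and 16.3 CPM in the next. Npc1 was high in female culture 2, with 121 CPM and 105 CPM in the next, and Ppt1 was high in the same culture, with 179.8 CPM and 120.2 CPM in the next. For Lipa the lines moved in opposite directions against the primary mean, with a log2 fold of -0.61 in PMC-303 and 0.50 in PMC-306, both outside the primary range. With 1 library per line this difference was not tested.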

How the results depend on the processing

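Of the 17 called members, 8 (Arsa, Ctsa, Ctsc, Ctsf, Ctso, Gm2a, Neu1 and Tpp1) kept their call in all 11 alternatives run for single members, and none of the 17 changed sign. Of the 17 calls, 14 were kept without PMC-303, 12 without PMC-306, 15 with each primary culture left out in turn, and 10 with another scaling, another addition and TPM alike. The number of members lower, 16, was 9 with TPM and 8 with female primary cultures only, and 13 to 17 with each library left out. The number of members higher, 1, was 0 with female primary cultures only and 1 to 2 with each library left out, where the additional gene, without PMC-306, was Arsb. The members' median log2 fold of -0.41 was -0.30 with total counts, a scaling that shifted all genes' median by 0.11, and -0.57 to -0.33 with each library left out, the former without PMC-306 and the latter without PMC-303. Over all genes, 983 were lower with TPM, 832 with female and 1241 with male primary cultures only, and 1326 were higher with female primary cultures only. The cause of these shifts was not tested. The fits with 1 sex used fewer primary cultures, whereas the TPM fit used all 8 libraries and values not scaled by TMM. Fits with 1 sex were not among the 11 alternatives run for single members. With female primary cultures only, 0 members were called higher, so that Ctsc lost its call there. The 2-fold counts of members in each line stayed within 1.5 times in every alternative run. A left-out line leaves 1 library, which is assumed to vary like the primary cultures. With the replicate number as a block, 0 members were called between the sexes, as without it. Same-numbered cultures correlated in their deviations with 0.40, -0.22 and 0.28, and differently numbered ones with between -0.59 and 0.42. The numbers were therefore not taken as a pairing, but 3 cultures per sex are too few to exclude a shared origin. Depth limits Ctsh, Ctsk, Ctsl and Lgmn, for which differences were not detectable, and Arsb, which did not pass the filter with all 8 libraries.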
